A study of Mus musculus with 36 samples.

Results

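Polycomb group proteins silence genes by marking histones. In the Polycomb repressive complex PRC2, EZH2 or its paralog EZH1 adds methyl groups to lysine 27 of histone H3, and needs EED and SUZ12 to do so. In PRC1, RNF2 (also called RING1B) or its paralog RING1 adds ubiquitin to histone H2A. A canonical PRC1 also holds a PCGF protein such as BMI1 and a chromobox protein such as CBX2 or CBX7, which binds the mark that PRC2 makes. In CD4 T cells EZH2 is known to be induced after activation and to restrain genes of effector lineages, among them those of T-bet, GATA3 and EOMES.

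The transcripts of 9 genes of these complexes are described here, which are Ezh1, Ezh2, Eed, Suz12, Cbx2, Cbx7, Bmi1, Rnf2 and Ring1. They were taken by gene name from a table of 56748 genes, 37436 of which had counts. All 9 members passed the filter on low counts in each of the 19 comparisons, and the lowest estimated count of any of them in a library was above the floor of 3 counts.

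Poly(A) RNA was sequenced from splenic CD4 T cells of mice of 2 lines of mixed background (129/Sv x C57BL/6), all male and 6 to 12 weeks of age. In the HP1a line the floxed gene for HP1α, Cbx5, had been excised in the germline with a CMV-cre transgene, so that KO mice lack it in every tissue, and WT mice were littermates with both alleles intact. In the HP1g line the floxed gene for HP1γ, Cbx3, was excised by Cd4-cre, which acts in T cells from their development in the thymus onwards, and WT mice were floxed littermates without Cre, so both genotypes carry the floxed allele. Naive cells were CD4+CD62L+CD44-/low cells obtained by negative selection. Tconv were naive cells of the same genotypes that had been injected into lethally irradiated hosts (C57BL/6J or CD45.1+ B6 mice) with bone marrow of C57BL/6J and of B6D2F1 mice, and that were sorted 3 weeks later as Vβ6+ (donor-specific) and Thy1.1- cells. "Tconv with Treg" were sorted likewise from hosts that also received expanded WT regulatory T cells (Treg) from Foxp3-Thy1.1 mice. Each of the 12 groups (2 lines, 2 genotypes, 3 conditions) had 3 libraries, except HP1g KO Tconv with Treg, which had 2 after replicate 3 was left out for its poor quality, so that 35 libraries were used. Naive and grafted cells also differ in how they were isolated and in the host, and these cannot be told apart from activation.

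Libraries held between 37029477 and 63042165 estimated counts (median 46844629), and 3 counts correspond to 0.0451 to 0.0819 CPM (counts scaled to the library size). The deleted genes checked the labels. Cbx5 was at 10.9 ± 1.55 CPM (SD, n = 3) in HP1a KO naive cells against 22.3 ± 3.42 in WT, and Cbx3 at 71.4 ± 8.40 in HP1g KO naive cells against 141 ± 50.9 in WT. Every KO library was below every WT library of its condition for the deleted gene in both lines. The 8 CD4 T cell markers (Cd3e, Cd4 and others) summed to 6460 to 11141 CPM in every library. Erythroid markers (6 genes) summed to more than 1000 CPM in 4 libraries, replicate 1 of each grafted HP1g group, where they reached 3300 to 6023 CPM, and myeloid markers (8 genes) summed to 5.62 to 477 CPM in grafted libraries. The library least like its group was replicate 3 of HP1a WT Tconv with Treg (median correlation with its group 0.934).

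In grafted Tconv, Ezh2 rose and Rnf2 fell in both lines and both genotypes. The regulatory stretches around the start sites of these 2 genes and of Suz12 are shown because Ezh2 and Suz12 were the only members whose window held the E2F motif, a recognition sequence of factors that switch on genes of the cell cycle. The motif was searched as TTTCCCGC, TTTCGCGC, TTTGCCGC or TTTGGCGC on both strands, in windows of 250 bases before and 50 bases after the start (RefSeq, build GRCm38.p6). Of 32851 such windows, 744 (2.26%) held a match. Windows were found for 8 of the 9 members, all but Cbx2, and all 8 were rich in CpG, with 17 (Eed) to 41 (Suz12) CpG against a median of 7 over all windows. Each searched sequence itself holds a CpG, and the share of matches among windows equally rich in CpG was not computed. The 2.26% is therefore no measure of whether the members hold the motif more often. The sequences run 5′ to 3′ on the strand of the gene, from 250 bases before to 20 bases after the start, with the E2F match in capitals. A match is a description of the sequence and not of binding.
Ezh2 (chr6:47595011-47595280, minus strand): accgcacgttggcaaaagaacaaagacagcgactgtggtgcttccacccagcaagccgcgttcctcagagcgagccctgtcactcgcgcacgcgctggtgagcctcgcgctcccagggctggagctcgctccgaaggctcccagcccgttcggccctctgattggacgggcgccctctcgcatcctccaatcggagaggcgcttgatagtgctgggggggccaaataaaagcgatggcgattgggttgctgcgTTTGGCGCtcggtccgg
Suz12 (chr11:79992856-79993125, plus strand): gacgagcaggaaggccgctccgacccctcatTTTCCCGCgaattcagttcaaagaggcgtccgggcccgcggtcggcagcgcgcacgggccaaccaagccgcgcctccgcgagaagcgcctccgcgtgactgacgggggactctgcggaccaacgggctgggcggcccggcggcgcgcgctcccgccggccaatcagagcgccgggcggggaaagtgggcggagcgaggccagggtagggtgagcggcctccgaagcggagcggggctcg
Rnf2 (chr1:151500972-151501241, minus strand): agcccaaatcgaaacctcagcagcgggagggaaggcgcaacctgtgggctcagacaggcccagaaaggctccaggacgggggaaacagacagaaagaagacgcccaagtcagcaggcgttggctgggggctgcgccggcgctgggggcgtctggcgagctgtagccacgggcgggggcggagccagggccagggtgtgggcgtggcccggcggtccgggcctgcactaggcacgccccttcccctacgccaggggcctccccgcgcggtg
In Ezh2 the match TTTGGCGC began at position 4 of the transcript, and in Suz12 the match TTTCCCGC began upstream of the start, at position -219. No E2F match was present in the window of Rnf2.

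Levels are first compared per kilobase of the canonical transcript, since a longer transcript gives more counts. Eed was the most abundant of the 9 per kb, with a median over the 35 libraries of 57.2 CPM per kb, followed by Cbx7 (38.1), Suz12 (28.7), Ezh1 (25.6), Rnf2 (23.4), Ezh2 (18.4), Ring1 (16.7) and Bmi1 (14.9). Cbx2, the chromobox protein that compacts nucleosomes, was the lowest at 2.03 CPM per kb. This order depends on the length used. With all exons of a gene joined, a choice made after values were seen, Eed (31.0), Cbx7 (20.5) and Suz12 (18.5 CPM per kb) stayed first and Cbx2 (1.73) last, but Rnf2 (15.9) and Bmi1 (12.4) came before Ezh1 (11.8), Ring1 (10.0) and Ezh2 (7.80). Across the 12 group means the widest range was that of Ezh2, 3.55-fold from 23.6 CPM in HP1a KO naive cells to 83.7 CPM in HP1g KO Tconv. Cbx2 spanned 2.81-fold, Rnf2 2.61-fold and Bmi1 2.15-fold, whereas Eed, Ring1, Suz12, Cbx7 and Ezh1 spanned 1.42 to 1.67-fold.

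**Figure D1:**
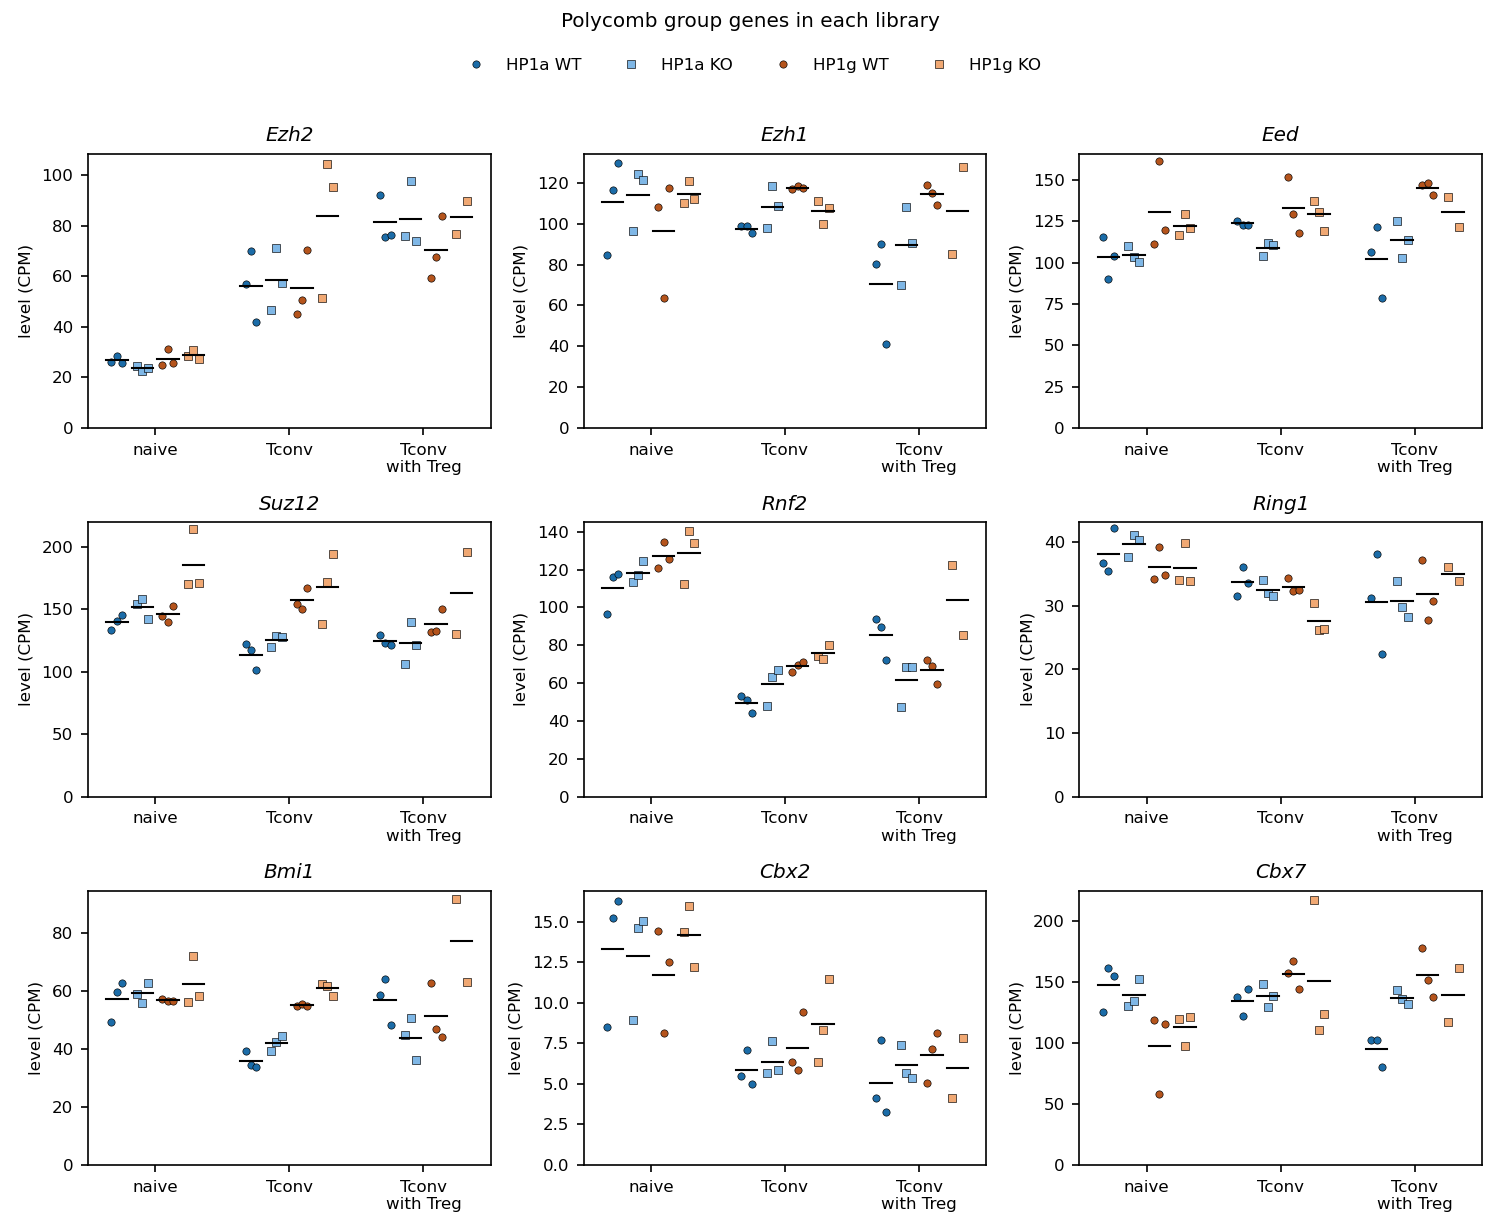
Level (CPM, linear axis from 0) of each of the 9 genes in the 35 libraries, by condition, line (HP1a blue, HP1g orange) and genotype (WT circles, KO squares); each symbol is a library and each bar the mean of its group. Ezh2 reaches 31.4 CPM at most in naive libraries and is at 42.0 CPM or above in grafted ones, and Rnf2 is highest in naive cells.

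Ezh2 (chr6:47507073-47572331, minus strand, GRCm39) encodes the methyltransferase of PRC2 that prevails in dividing cells. Its naive levels were 26.0, 28.7 and 25.7 CPM in HP1a WT, 24.7, 22.5 and 23.6 in HP1a KO, 24.9, 31.4 and 25.8 in HP1g WT, and 28.3, 31.0 and 27.1 in HP1g KO cells. In Tconv they were 56.9, 69.8 and 42.0 CPM in HP1a WT, 46.5, 71.3 and 57.2 in HP1a KO, 45.1, 50.6 and 70.2 in HP1g WT, and 51.4, 104 and 95.4 in HP1g KO cells. All Tconv libraries lay above all naive libraries, and the share of all genes without overlap was not computed. The log2 fold change between Tconv and naive cells was 1.07 ± 0.18 (SE) in HP1a WT (adjusted p = 0.00145), 1.32 ± 0.16 in HP1a KO (adjusted p = 0.000581), 1.01 ± 0.21 in HP1g WT (adjusted p = 0.00862) and 1.57 ± 0.26 in HP1g KO cells (adjusted p = 0.00251). These are 2.02 to 2.96-fold higher levels, and the call held without any single library in all 4 comparisons. In the order of its group means, the 8 grafted groups overlapped from one to the next, and a gap separated the lowest of them, HP1g WT Tconv (55.3 CPM), from the highest naive group, HP1g KO (28.8 CPM).

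Ezh1, the paralog known to prevail in resting cells, did not pass in any comparison. Its group means lay between 70.6 and 118 CPM, and its log2 fold change in Tconv against naive cells lay between -0.17 and 0.29. Within a library, Ezh2 per kb was 0.248 to 0.676 of Ezh1 per kb in the 12 naive libraries (median 0.335), 0.528 to 1.43 in the 12 Tconv libraries (median 0.756) and 0.685 to 2.53 in the 11 libraries of Tconv with Treg (median 1.15). The highest naive ratio, 0.676, came from HP1g WT replicate 2, where Ezh1 was at 63.9 CPM against 108 and 118 in the other 2 libraries of its group. The highest ratio of all, 2.53, came from HP1a WT Tconv with Treg replicate 3, where Ezh1 was at 41.4 CPM against 80.5 and 90.0.

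Eed, which binds the methylated histone tail and stimulates the enzyme, and Suz12, which holds the PRC2 core together, moved little. Eed did not pass in any comparison and its group means lay between 102 and 145 CPM. Suz12 fell in the HP1a line, from 133, 140 and 145 CPM in WT naive cells to 122, 117 and 101 in WT Tconv (log2 fold change -0.30 ± 0.09, adjusted p = 0.0298), and from 154, 158 and 142 CPM to 120, 129 and 128 in KO cells (-0.26 ± 0.07, adjusted p = 0.0228). The groups did not overlap in either genotype, and the share of all genes without overlap was not computed. The call was lost without any 1 of 4 WT libraries (Tconv replicates 2 and 3, naive replicates 2 and 3) or 3 KO libraries (Tconv replicates 1 and 3, naive replicate 2), with a highest adjusted p of 0.099 in WT and 0.0701 in KO. With the replicate block the WT call was also lost (adjusted p = 0.0656). In the HP1g line the log2 fold change was 0.11 ± 0.14 in WT and -0.11 ± 0.15 in KO cells, neither past the threshold.

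**Figure D2:**
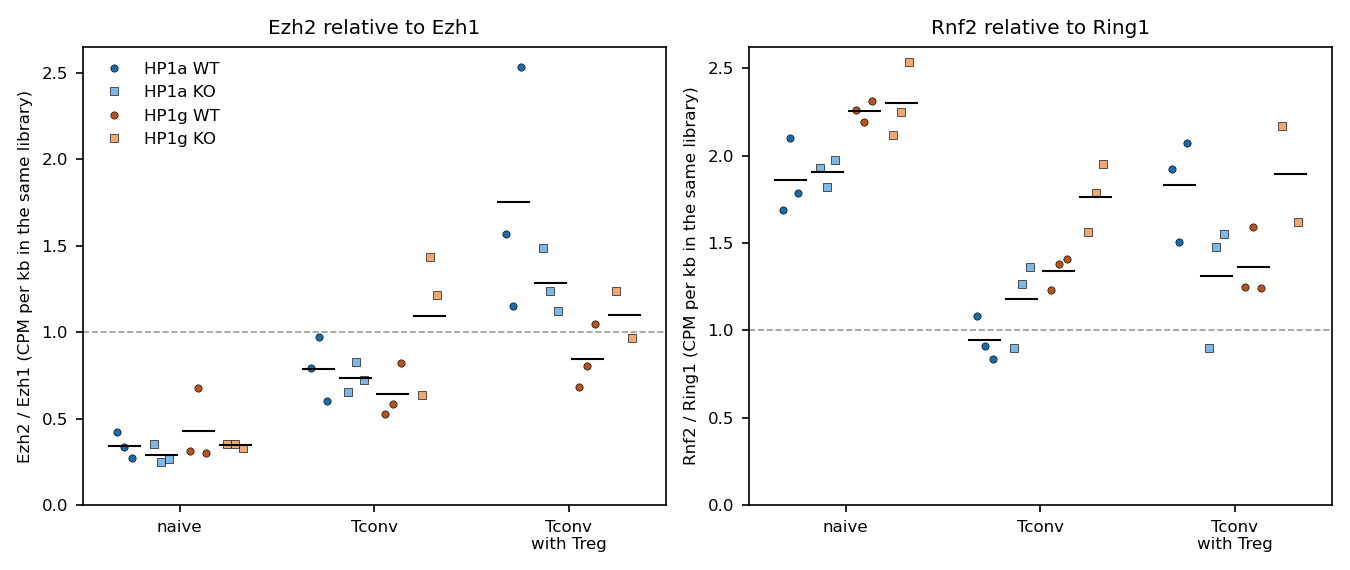
Ratio of Ezh2 to Ezh1 (left) and of Rnf2 to Ring1 (right), each as CPM per kb within the same library, on linear axes from 0, by condition, line and genotype; symbols are libraries, bars are group means and the dashed line marks equal levels. The median Ezh2 to Ezh1 ratio is 0.335 in naive libraries, 0.756 in Tconv and 1.15 in Tconv with Treg; the median Rnf2 to Ring1 ratio is 2.11, 1.31 and 1.55.

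Rnf2 (chr1:151333755-151376729, minus strand, GRCm39), the main ubiquitin ligase of PRC1, moved the other way. Its naive levels were 96.6, 116 and 117 CPM in HP1a WT, 113, 117 and 125 in HP1a KO, 121, 134 and 126 in HP1g WT, and 112, 140 and 134 in HP1g KO cells. In Tconv they were 53.1, 51.2 and 43.9 CPM in HP1a WT, 47.9, 63.3 and 67.0 in HP1a KO, 65.9, 69.5 and 71.3 in HP1g WT, and 74.3, 73.0 and 80.0 in HP1g KO cells. No Tconv library reached the lowest naive library, and here too the share of all genes without overlap was not computed. The log2 fold change was -1.15 ± 0.11 in HP1a WT (adjusted p = 8.69e-05), -0.98 ± 0.13 in HP1a KO (adjusted p = 0.000956), -0.88 ± 0.14 in HP1g WT (adjusted p = 0.00215) and -0.74 ± 0.11 in HP1g KO cells (adjusted p = 0.000776), and these calls held without any single library.

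Its paralog Ring1 had group means of 27.6 to 39.7 CPM. It fell slightly in HP1a KO Tconv (37.6, 41.2 and 40.4 CPM in naive cells, 34.0, 32.0 and 31.5 in Tconv, log2 fold change -0.28 ± 0.08, adjusted p = 0.0351) and in HP1g KO Tconv (34.0, 39.9 and 33.9 CPM against 30.5, 26.2 and 26.3, log2 fold change -0.36 ± 0.11, adjusted p = 0.0329). In WT cells the change was -0.17 ± 0.11 in the HP1a and -0.13 ± 0.15 in the HP1g line and did not pass. The HP1a KO call was lost without any 1 of 4 libraries (replicates 2 and 3 of Tconv and of naive cells), with the replicate block (adjusted p = 0.0668), without the filter on low counts (0.104) and with all libraries of the line in 1 fit (0.147). The HP1g KO call was lost without any library but Tconv replicate 1, with the replicate block (adjusted p = 0.0637) and without the filter (0.0704). The Rnf2 to Ring1 ratio per kb was 1.69 to 2.54 in naive libraries (median 2.11) and 0.837 to 1.95 in Tconv (median 1.31).

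Cbx2 fell and Cbx7 did not. Cbx2, already low, was at 8.49, 15.2 and 16.3 CPM in HP1a WT naive cells and at 5.51, 7.07 and 5.0 in HP1a WT Tconv, a log2 fold change of -1.18 ± 0.27 (adjusted p = 0.00794). The change was -0.998 ± 0.244 in HP1a KO cells (adjusted p = 0.0145) and -0.68 ± 0.23 in HP1g KO cells (adjusted p = 0.0458), whereas -0.69 ± 0.29 in HP1g WT cells had an adjusted p of 0.107. The HP1g WT naive libraries were 14.4, 8.17 and 12.5 CPM and overlapped the Tconv libraries at 6.34, 5.88 and 9.46, and without naive replicate 2 the call passed (log2 fold change -0.89, adjusted p = 0.0295). The HP1a KO call was lost without Tconv replicate 3, naive replicate 2 or naive replicate 3 (highest adjusted p 0.057), and the HP1g KO call without any of 4 libraries (Tconv replicate 2, all naive replicates; highest adjusted p 0.138), with the replicate block (0.0635) and with all libraries of the line in 1 fit (0.0938). Cbx7, the chromobox protein most expressed in resting lymphocytes, had group means of 95.0 to 156 CPM and no change past the threshold. Without naive replicate 2, which had 58.1 CPM of Cbx7 against 119 and 115 in the other naive libraries, Cbx7 also passed in HP1g WT Tconv (log2 fold change 0.42, adjusted p = 0.00868). Per kb, Cbx7 exceeded Cbx2 by 6.57 to 15.9-fold in naive libraries (median 10.1) and by 11.7 to 36.8-fold in Tconv (median 26.1), and with all exons joined the medians were 6.34 and 16.4-fold.

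Bmi1 (PCGF4) fell in the HP1a line, from 49.5, 59.6 and 62.7 CPM to 39.5, 34.7 and 34.0 in WT cells (log2 fold change -0.66 ± 0.12, adjusted p = 0.00200) and from 59.2, 55.9 and 62.8 CPM to 39.5, 42.5 and 44.4 in KO cells (-0.48 ± 0.09, adjusted p = 0.00373). Both calls held without any single library. In the HP1g line the naive and Tconv levels lay together, at 57.5, 56.8 and 56.6 CPM against 55.1, 55.7 and 55.1 in WT cells (log2 fold change -0.04 ± 0.13, adjusted p = 0.820) and with -0.01 ± 0.11 in KO cells (adjusted p = 0.960). The difference of the Bmi1 change between the lines was not tested.

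In counts, 1 of 9 members was higher and 4 lower in HP1a WT Tconv, beside 24.3% of all tested genes higher and 21.4% lower. In HP1a KO cells 1 was higher and 5 lower (22.9% and 17.8% of all genes), in HP1g WT cells 1 and 1 (18.3% and 13.2%), and in HP1g KO cells 1 and 3 (23.4% and 17.7%). The median log2 fold change of the 9 members was -0.17, -0.26, 0.02 and -0.09 in the same order, beside -0.04, -0.01, -0.03 and 0.02 over all genes. With a threshold of a 2-fold change added, 3 members (Ezh2, Rnf2 and Cbx2) passed in HP1a WT and 1 (Ezh2) in each of the other comparisons, beside 23.1%, 19.7%, 23.5% and 23.1% of all genes in either direction. Without the libraries high in erythroid transcripts, a choice made after values were seen, the counts in the HP1g line were 2 in WT and 4 in KO cells as before. In HP1g WT cells 4 members (Ezh2, Rnf2, Cbx2 and Cbx7) passed without naive replicate 2. In HP1a KO cells 3 passed without Tconv replicate 3 or naive replicate 2, and in HP1g KO cells 2 passed without Tconv replicate 2 or any 1 naive replicate, Ezh2 and Rnf2 being among them each time. With the replicate block 4 members passed in HP1a WT, 5 in HP1a KO and 2 (Ezh2 and Rnf2) in HP1g KO cells.

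Markers of other cells moved with these groups. Myeloid markers (8 genes, of which Elane was at 0 in 25 of the 35 libraries) were lower in HP1a WT Tconv, where they summed to 5.62 to 5.90 CPM against 8.17 to 11.3 CPM in naive cells. In the other 3 Tconv groups they summed to 11 to 131 CPM against 9.82 to 11.8 in HP1a KO, where the groups overlapped, 21.4 to 319 against 4.96 to 11.5 in HP1g WT, and 32.7 to 90.6 against 8.43 to 11.1 in HP1g KO cells. Erythroid markers summed to 1.91 to 3.43 CPM in HP1a WT Tconv against 36.9 to 96.5 in naive cells, and to 26.1 to 756 against 40.6 to 176 in HP1a KO, 74.7 to 4864 against 9.92 to 50.2 in HP1g WT, and 155 to 3300 against 63.1 to 77.0 CPM in HP1g KO cells. The Treg markers Foxp3, Ikzf2 and Il2ra, of which Il2ra is also known to be induced in activated T cells, were higher in all 4 Tconv groups, at 46.3 to 114 CPM against 12.2 to 22.7 in naive libraries. The part of these cells in the changes of the members was not tested.

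**Figure D3:**
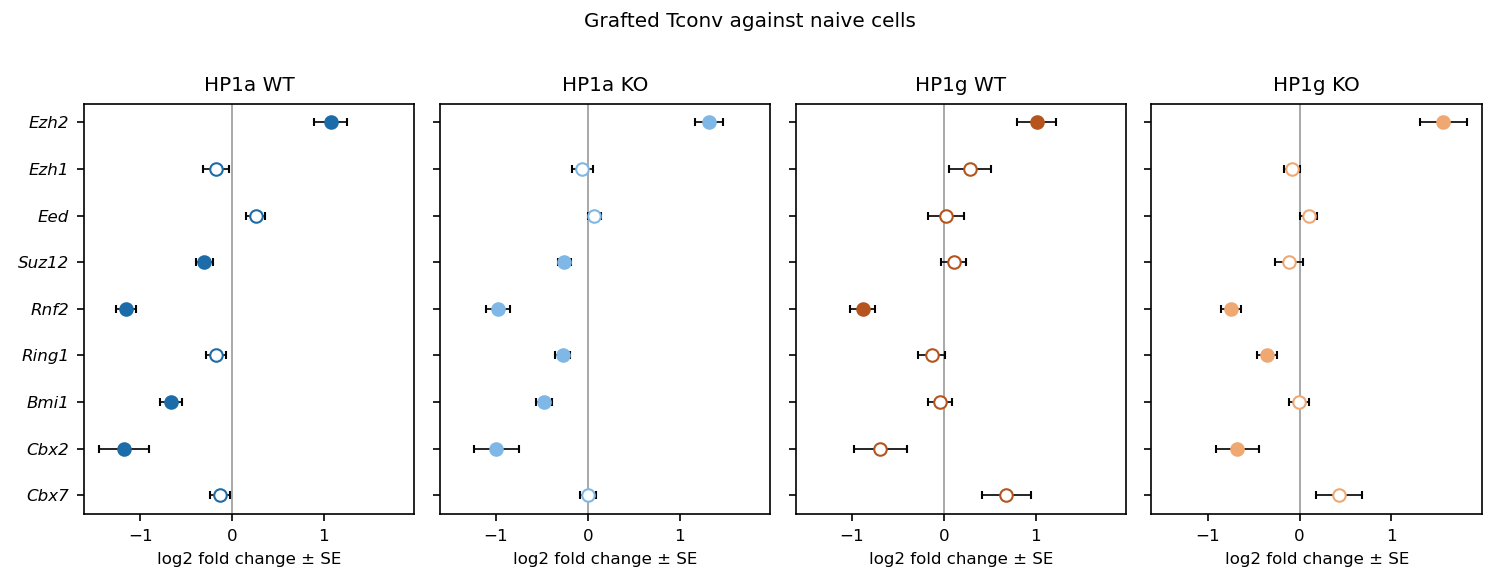
Log2 fold change (edgeR, points) with its standard error (bars) of the 9 genes in grafted Tconv against naive cells, in a panel for each line and genotype; filled points have an adjusted p under 0.05. Ezh2 is to the right of 0 and filled in all 4 panels, Rnf2 to the left and filled in all 4, and Bmi1 is filled in the HP1a panels only.

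Some of the other subunits and of the erasers of the marks also passed, as did many of all tested genes. Of all genes 24.3% were higher and 21.4% lower in HP1a WT Tconv, and 22.9% and 17.8% in HP1a KO Tconv. In the HP1g line these were 18.3% and 13.2% in WT and 23.4% and 17.7% in KO cells. The counts of the lists below stand beside these shares and were not tested against them. Of the other PRC2 subunits, 9 of 10 could be tested. Phf19, which helps PRC2 to reach its targets and is known from dividing cells, rose in all 4 comparisons (log2 fold change 1.98 to 2.30), with group means of 0.750 to 1.53 CPM in naive cells and 2.96 to 6.57 CPM in Tconv. Epop, a subunit of the alternative PRC2.1 assembly, fell in all 4 (-1.22 to -0.80). Jarid2, which links PRC2 to ubiquitinated histone H2A, fell in HP1a WT (-0.60, adjusted p = 0.00140) and HP1a KO cells (-0.69, adjusted p = 0.000284). Altogether 1 was higher and 4 lower in HP1a WT, 1 and 2 in HP1a KO, 1 and 2 in HP1g WT, and 2 and 2 in HP1g KO cells.

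Among 8 other canonical PRC1 subunits, 2 were higher and 2 lower in HP1a WT and in HP1g KO cells, and 1 was higher and 2 lower in HP1a KO and in HP1g WT cells. Pcgf2 (MEL18), which can take the place of BMI1, rose in all 4 comparisons (log2 fold change 2.60 to 3.59) from 0.277 to 0.458 CPM in naive groups to 2.61 to 3.58 CPM in Tconv. Scmh1, a Sex comb homolog, fell in all 4 (-3.23 to -2.48), from 20.5 to 28.1 CPM to 2.25 to 4.32 CPM.

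Of the 14 subunits of variant PRC1, which lacks a chromobox protein, 1 was higher in each comparison and 5, 3, 3 and 7 were lower in HP1a WT, HP1a KO, HP1g WT and HP1g KO cells. Pcgf5 fell in all 4 (log2 fold change -1.05 to -0.66), and so did Mga (-0.71 to -0.54). Auts2 passed as lower in all 4, from 2.43 to 6.41 CPM in naive groups to 0.0195 to 0.0996 CPM in Tconv, close to the floor of 3 counts. Kdm2b, which brings variant PRC1 to unmethylated CpG islands, rose in HP1g WT (1.04, adjusted p = 0.00664) and HP1g KO cells (0.84, adjusted p = 0.00160). Of 7 erasers of the marks, of which 6 were tested, Kdm6a, an H3K27 demethylase, fell in HP1a WT (-0.35, adjusted p = 0.0315) and HP1a KO cells (-0.38, adjusted p = 0.0137); 0 were higher and 1 lower in HP1a WT, 0 and 2 in HP1a KO, 0 and 0 in HP1g WT, and 1 and 1 in HP1g KO cells.

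Genes known as Polycomb targets in T cells and elsewhere (6 genes) all rose where they could be tested, 4 of 4, 4 of 4, 5 of 5 and 6 of 6 in HP1a WT, HP1a KO, HP1g WT and HP1g KO Tconv. Those not tested in a comparison had failed the filter on low counts there, and a gene that was silent in naive cells passed that filter only through Tconv. Tbx21, the gene of T-bet, went from 0.198 to 0.402 CPM in naive groups to 178 to 317 CPM in Tconv, and Gata3 from 95.9 to 117 CPM to 203 to 506 CPM. Eomes rose by 1.85 to 2.77 on the log2 scale, and Cdkn2b, an inhibitor of the cell cycle, reached 2.37 to 5.47 CPM. The list was written with earlier results of these data known, and its direction is no independent evidence about Polycomb silencing.

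Cell cycle transcripts moved with Ezh2. Of 15 cell cycle genes 12, 11, 11 and 10 were higher and 0 lower in the 4 comparisons, led by Birc5, Mki67, Cdk1 and Ccna2, with a median log2 fold change of 2.28 to 2.94. Their summed level was 611 to 842 CPM in naive libraries, 960 to 3414 in Tconv and 1143 to 2312 in Tconv with Treg. Over the 12 group means of log2 CPM Ezh2 followed the log2 of this sum with a Pearson r of 0.959. Over the 8 grafted groups alone the r was 0.641. For Rnf2 the r was -0.617 over 12 groups and 0.773 over the 8 grafted groups, and for Bmi1 it was -0.03 and 0.839. These correlations are descriptions over groups that share lines and hosts and fall into naive and grafted clusters. Whether the share of dividing cells accounts for the Ezh2 level was not tested, and in bulk RNA fewer expressing cells and less RNA per cell cannot be told apart.

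**Figure D4:**
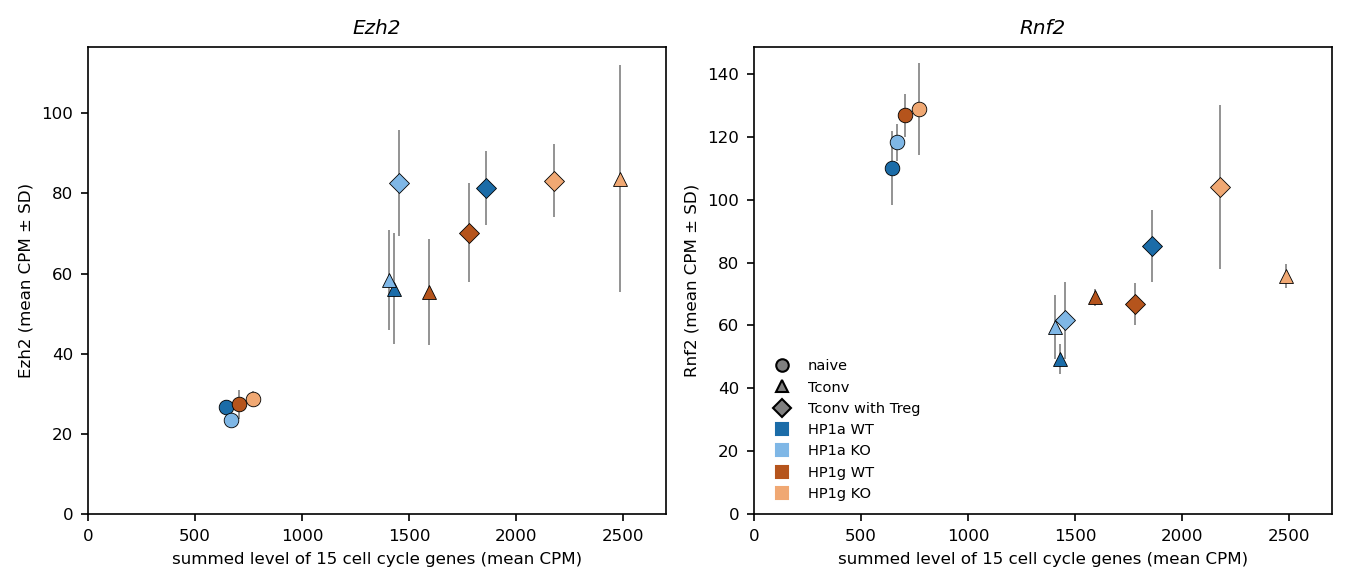
Mean level of Ezh2 (left) and Rnf2 (right) in CPM ± SD against the mean summed CPM of 15 cell cycle genes, on linear axes, for the 12 groups (symbol shape for condition, colour for line and genotype; n = 3 libraries a group, 2 for HP1g KO Tconv with Treg). Naive groups lie together at the left, with low Ezh2 and high Rnf2. Over the 8 grafted groups r is 0.641 for Ezh2 and 0.773 for Rnf2, computed on log2 values and not on the linear values plotted.

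The genes most like each member over the 12 group means of log2 CPM were sought among 9388 genes. For Ezh2 they were Gramd1b (r = 0.99), Tox2 (0.986) and Atxn1 (0.984), for Rnf2 Map3k1 (0.968), Strbp (0.955) and Klhdc2 (0.953), and for Cbx2 Tnfrsf1a, Zyg11b and Cse1l (0.986 to 0.987). For Bmi1 they were Nt5c2, Spred1 and Itih5 (0.941 to 0.948), for Ezh1 Lrig2, Kif16b and Epb41 (0.971 to 0.984), for Eed Yrdc (0.966) and Strap (0.949), for Suz12 Phf6, Usp37 and Erbin (0.920 to 0.930), for Cbx7 Med16, Stk11ip and Galns (0.932 to 0.942), and for Ring1 Zfp28, Galnt11 and Tbc1d17 (0.914 to 0.929). Among the members themselves the strongest relations were those of Ezh2 with Cbx2 (-0.89) and Ring1 (-0.84), of Suz12 with Bmi1 (0.80) and of Bmi1 with Rnf2 (0.78).

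Treg in the host came with higher Rnf2 and Bmi1 in WT Tconv of the HP1a line. Rnf2 was at 53.1, 51.2 and 43.9 CPM without and at 93.7, 89.9 and 72.4 CPM with Treg (log2 fold change 0.83 ± 0.16, adjusted p = 0.0219), which left it below the naive libraries at 96.6 to 117 CPM. Bmi1 was at 39.5, 34.7 and 34.0 CPM without and at 58.6, 64.3 and 48.3 CPM with Treg (0.70 ± 0.16, adjusted p = 0.0402) and overlapped the naive libraries at 49.5 to 62.7 CPM. Neither gene overlapped between the groups, and the share of all genes without overlap was not computed. With 2 of 9 members higher and 0 lower, the background in this comparison was 4.08% of genes higher and 3.46% lower; with the 2-fold threshold no member passed, beside 5.96% of genes. DESeq2 called the same 2 genes. Each call was lost when any library but replicate 3 of Tconv with Treg was left out, with adjusted p up to 0.145 for Rnf2 and 0.215 for Bmi1 and log2 fold changes of 0.74 to 0.92 and 0.60 to 0.80. With the replicate block Bmi1 alone lost its call.

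Of the other members in these cells, Ezh2 was at 91.9, 75.5 and 76.4 CPM with Treg, above all 3 libraries without (0.57 ± 0.21, adjusted p = 0.164), and Cbx7 was at 103, 102 and 80.0 CPM, below all 3 without (-0.46 ± 0.16, adjusted p = 0.134). Both passed when all libraries of both HP1a genotypes shared 1 fit (adjusted p = 0.0380 and 0.0177). Over all genes that fit called 1577 higher and 1496 lower of 18016, more than the main fit. Eed, Ezh1, Suz12, Cbx2 and Ring1 had log2 fold changes between -0.43 and 0.18. Of the lists, Mtf2, which brings PRC2 to CpG islands, rose (0.64 ± 0.13, adjusted p = 0.0267), as did Cbx6 (0.78 ± 0.13, adjusted p = 0.0146) and Kdm2b (1.12 ± 0.16, adjusted p = 0.00778), each the only one of its list to pass, and no eraser and no cell cycle gene passed. Among the known targets, Tbx21 fell from 198 to 265 CPM to 50.7 to 91.0 CPM (-1.71 ± 0.24, adjusted p = 0.00760) and Gata3 from 355 to 616 CPM to 124 to 183 CPM (-1.62 ± 0.26, adjusted p = 0.0117), whereas Eomes rose from 11 to 16.0 CPM to 81.3 to 264 CPM (3.52 ± 0.45, adjusted p = 0.00558).

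Other transcripts moved with the same groups. The Treg markers summed to 203 to 358 CPM in HP1a WT Tconv with Treg against 53.6 to 80.1 CPM without, although injected Treg carry Thy1.1 and the sort took Thy1.1- cells. The CD4 T cell markers summed to 9044 to 11035 CPM with Treg against 7859 to 8137 without, and the cell cycle sum was 1497 to 2274 against 1239 to 1792 CPM. Myeloid markers summed to 14.0 to 37.9 CPM with Treg against 5.62 to 5.90 without, with no overlap, and erythroid markers to 2.46 to 49.5 against 1.91 to 3.43 CPM. Their part in the changes of Rnf2 and Bmi1 was not tested.

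In the other 3 comparisons with and without Treg edgeR called 0 members, and DESeq2 also 0. Of 9 members 1, 0 and 1 had an unadjusted p under 0.05 beside 15.8%, 6.89% and 7.62% of all genes in HP1a KO, HP1g WT and HP1g KO cells. Over all genes DESeq2 called 470 higher and 548 lower in HP1a KO cells. It called 33 and 54 in HP1g WT and 213 and 110 in HP1g KO cells. The shares of called genes that follow are those of edgeR. In HP1a KO cells (0.756% of all genes called) Rnf2 was at 47.9, 63.3 and 67.0 CPM without and 47.6, 68.7 and 68.5 with Treg (0.07 ± 0.17), and Bmi1 changed by 0.08 ± 0.13. The member with the unadjusted p under 0.05 there was Ezh2 (0.52 ± 0.17). In HP1g WT cells (0.0126% of genes) Rnf2 was at 65.9, 69.5 and 71.3 CPM without and 72.3, 68.9 and 59.5 with Treg (-0.04 ± 0.10). In HP1g KO cells (0% of genes), with 2 libraries with Treg, Rnf2 was at 74.3, 73.0 and 80.0 CPM without and 122 and 85.6 with Treg (0.45 ± 0.18), the only member with an unadjusted p under 0.05. Treg markers summed to 66.2 to 175 CPM with Treg in HP1a KO, 47.5 to 67.2 in HP1g WT and 97.5 to 174 in HP1g KO cells.

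**Figure D5:**
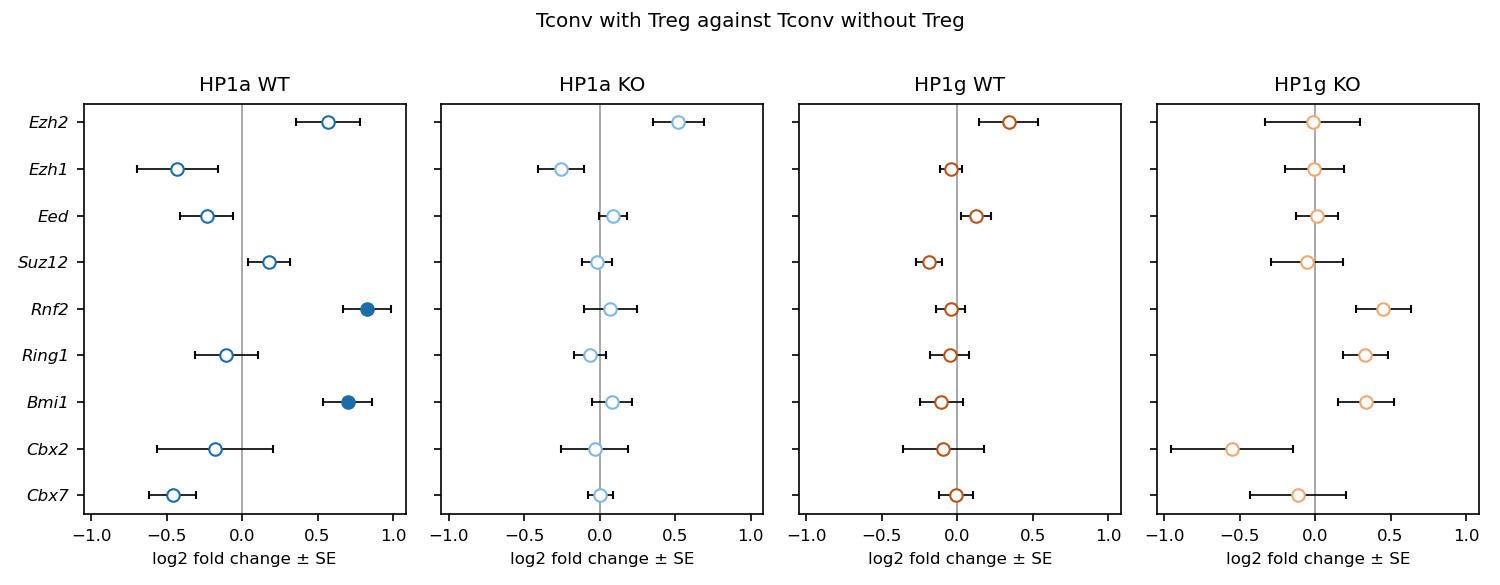
Log2 fold change (edgeR, points) with its standard error (bars) of the 9 genes in Tconv with Treg against Tconv without, in a panel for each line and genotype; filled points have an adjusted p under 0.05. Rnf2 (0.83) and Bmi1 (0.70) are filled in HP1a WT cells, and no point is filled in the other 3 panels.

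The differences between these responses were tested with interaction terms. The Treg effect on Rnf2 was larger in WT cells of the HP1a than of the HP1g line by 0.86 ± 0.18 on the log2 scale (adjusted p = 0.0371), 1 member higher and 0 lower beside 0.771% of genes higher and 0.987% lower. For Bmi1 the difference was 0.79 ± 0.21 (adjusted p = 0.0870 in edgeR and 0.0159 in DESeq2). The Rnf2 call was lost without 10 of the 12 single libraries and without the 2 WT libraries high in erythroid transcripts. Of the lists, Kdm2b also passed (1.06 ± 0.17, adjusted p = 0.0108). The WT cells of the HP1g line also carry floxed alleles, and the study describes their response as not well suppressed at the ratio of Treg it used for that line. These differences cannot be told apart from the line.

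Between KO and WT cells of the HP1a line the difference of the Treg effect was -0.76 ± 0.25 for Rnf2 (adjusted p = 0.291), -0.62 ± 0.21 for Bmi1 (adjusted p = 0.312) and 0.47 ± 0.17 for Cbx7 (adjusted p = 0.373), so that the loss of HP1α was not shown to change the response of any member. Of all genes 0.145% were called. These 3 of 9 members had an unadjusted p under 0.05, as did 9.74% of all genes. In the HP1g line 0 members and 0% of genes were called, and Rnf2 (0.47 ± 0.20) alone had an unadjusted p under 0.05, beside 3.74% of all genes. For the difference of the change from naive cells to Tconv between genotypes, 0 members passed in either line (0.00587% of genes in HP1a, 0.0235% in HP1g), 0 had an unadjusted p under 0.05 (4.89% and 7.89% of genes), and DESeq2 called 0 in all 4 of these interactions. Over all genes DESeq2 called 42 higher and 28 lower for activation and 259 and 215 for Treg in the HP1a line. In the HP1g line these were 60 and 58, and 9 and 6.

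KO and WT cells were not shown to differ in any member. Over 54 tests (9 members in 2 lines and 3 conditions) edgeR called 0, DESeq2 called 0, and 7 had an unadjusted p under 0.05, beside 8.2% of the tests of all genes. By comparison these were 0, 2 and 2 of 9 members in naive cells, Tconv and Tconv with Treg of the HP1a line (1.87%, 8.53% and 12.1% of all genes) and 1, 0 and 2 in the HP1g line (5.78%, 8.42% and 11.8%). Over all genes edgeR gave few calls in these comparisons, 0%, 0.122% and 0.123% in naive cells, Tconv and Tconv with Treg of the HP1a line, and 0.00669%, 0.0437% and 0% in the HP1g line. DESeq2 gave more, with 12 genes higher and 6 lower, 209 and 65, and 485 and 462 in the same order in the HP1a line. In the HP1g line it called 23 and 26, 237 and 161, and 560 and 297. It tested 17578 to 18591 genes in these comparisons. For the deleted genes themselves, edgeR called Cbx5 in HP1a Tconv (log2 fold change -0.89, adjusted p = 0.0331). It called Cbx5 neither in HP1a naive cells (-1.03, adjusted p = 0.99) nor in HP1a Tconv with Treg (-1.42, adjusted p = 0.086). Cbx3 was not called in HP1g naive cells (-0.95, adjusted p = 0.63), Tconv (-0.43, 0.32) or Tconv with Treg (-0.53, 0.26). The edgeR test without a replicate block thus missed deleted genes, and 0 calls do not show that the members are unchanged. In HP1a naive cells, where replicate numbers were taken to pair libraries, the test used no block. There the block gave 21 genes higher and 6 lower, and 1372 with an unadjusted p under 0.05, against 291 without it. In naive cells the log2 fold changes of the 9 members lay between -0.18 and 0.12 in the HP1a line and between -0.06 and 0.37 in the HP1g line, the largest being Suz12 in HP1g KO cells (170, 214 and 171 CPM against 145, 140 and 153 in WT, 0.37 ± 0.14, adjusted p = 0.630). In Tconv they lay between -0.18 and 0.28 in the HP1a line and between -0.24 and 0.62 in the HP1g line, where Ezh2 had 0.62 ± 0.30 (adjusted p = 0.688) and the KO libraries at 51.4, 104 and 95.4 CPM overlapped the WT libraries at 45.1, 50.6 and 70.2. KO and WT Tconv did not overlap for Eed in the HP1a line, or for Ezh1, Bmi1, Rnf2 and Ring1 in the HP1g line. In naive cells this held for Ezh2 in the HP1a and Suz12 in the HP1g line. The HP1a Tconv members with an unadjusted p under 0.05 were Eed (-0.17 ± 0.06) and Bmi1 (0.23 ± 0.09).

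In Tconv with Treg the standard errors of the members were 0.15 to 0.40 in the HP1a and 0.12 to 0.37 in the HP1g line. In the HP1a line Cbx7 was at 144, 136 and 131 CPM in KO cells against 103, 102 and 80.0 in WT (0.51 ± 0.15, adjusted p = 0.251), and Rnf2 at 47.6, 68.7 and 68.5 against 93.7, 89.9 and 72.4 (-0.49 ± 0.19, adjusted p = 0.368), in both cases with no overlap. In the HP1g line Rnf2 was at 122 and 85.6 CPM in KO against 72.3, 68.9 and 59.5 in WT cells (0.63 ± 0.18, adjusted p = 0.268), also without overlap. Bmi1 there was at 63.02 to 91.87 CPM in KO against 44.08 to 62.89 in WT cells (0.59 ± 0.23, adjusted p = 0.388), again without overlap. Eed there did not overlap either, at 121.8 to 139.7 CPM in KO against 141.0 to 148.1 in WT cells (-0.15 ± 0.12, adjusted p = 0.696). The share of all genes without overlap was not computed. With 3 against 3 libraries an exact permutation test cannot go below 0.1, and this limit is higher with 2 against 3 libraries. The HP1g values here compare 2 KO with 3 WT libraries. Lack of overlap alone therefore shows no difference in either line. When all libraries of a line shared 1 fit, Cbx7 passed in the HP1a line (adjusted p = 0.0216) and Rnf2 in the HP1g line (adjusted p = 0.0440). This fit also called more of all genes, 733 higher and 527 lower of 18016 in the HP1a line. In the HP1g line it called 261 higher and 96 lower of 18435. Myeloid markers summed to 168 to 477 CPM in HP1a KO Tconv with Treg against 14.0 to 37.9 in WT, and erythroid markers to 112 to 691 against 2.46 to 49.5 CPM, with no overlap in either, and their part in these values was not tested.

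Most members have exon sequence within the span of a neighbouring gene on the other strand. These were Ezh1 with Cntnap1, Ezh2 with Cul1, Suz12 with Crlf3, Cbx7 with Apobec3, Rnf2 with Trmt1l, and Eed and Cbx2 with non-coding genes. The span includes introns, and whether exons of the neighbour lie there too was not checked. The kit does not mark strand, so reads from any exon sequence that both genes share cannot be told apart.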

How the data were processed

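RNA-seq libraries (SMART-Seq v4 amplification, not stranded) were trimmed, aligned to GRCm39 with STAR and quantified with Salmon by the authors. The study left out replicate 3 of HP1g KO Tconv with Treg for its GC content, exonic share and coverage, and so did the comparisons here. The deposited values are estimated counts per gene, not scaled to library size, and 82.9% of them were whole numbers. They were rounded to whole numbers here. Columns were matched to samples by name and samples to groups by title. The 34 pairs of libraries within groups held 0 pairs with identical values.

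Levels are TMM-normalised CPM. Groups were compared with the quasi-likelihood test of edgeR (edgeR 4.0.16, R 4.3.3; robust estimation, filterByExpr, the groups compared only), with Benjamini-Hochberg adjustment over all genes tested. A gene passed at an adjusted p under 0.05. The study used DESeq2 with a 2-fold threshold as well, and both were run as alternatives (DESeq2 1.42.0), as were RLE size factors, no filter on low counts, all libraries of a line in 1 fit, a replicate block, the left-out library included and each replicate left out. Leaving out libraries with over 1000 CPM of erythroid markers, and lengths from all exons, were added after values were seen.

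Named were the 9 members, the 2 targeted genes, up to 4 passing genes per list and comparison by fold change among those with a mean of at least 1 CPM, also where they passed in further comparisons, and the 3 genes most like each member among those with at least 5 CPM. Of the genes this rule gives, 2 are not reported here. The members and lists were chosen with earlier results of these data known. Nothing in the labels ties libraries to separate animals, so p-values measure the spread between libraries, which may be technical. With 3 against 3 libraries an exact permutation test cannot go below 0.1, and with 2 against 3 this limit is higher. The share of all genes without overlap between groups was not computed in any comparison. Replicate numbers were taken to pair libraries where at least 3 pairs could be formed and every correlation of deviations was above 0.1. This held in KO against WT naive HP1a cells and in the Treg effect on HP1g WT cells, where 0 members passed with and without the replicate block. KO against WT HP1g Tconv with Treg had correlations of 0.231 and 0.461 but only 2 pairs, and 0 members passed there with and without the block.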

Additional observations from a re-analysis of the deposited data

Results flagged for a closer look

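The Treg effect on Rnf2 differed between WT cells of the 2 lines, by 0.858 on the log2 scale (HP1a minus HP1g, interaction term in edgeR, adjusted p = 0.0371). Rnf2 was higher with Treg in 3 of 3 HP1a WT libraries, at 72.4 to 93.7 CPM against 43.9 to 53.1 without, and overlapped between the HP1g WT groups, at 59.5 to 72.3 against 65.9 to 71.3 CPM. The adjusted p passed the threshold without 2 of the 12 single libraries only (HP1a WT Tconv with Treg replicate 3 and HP1g WT Tconv with Treg replicate 1).

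In the library that the study left out, replicate 3 of HP1g KO Tconv with Treg, Cbx2 was at 24.7 CPM (386 counts), above the 3.27 to 16.3 CPM of the 35 libraries used and above the 8.17 CPM that was highest in HP1g WT Tconv with Treg. Ezh1 (71.2 CPM) and Cbx7 (143 CPM) lay within the range of the other libraries, and the other 6 members lay below it, from Ring1 at 3.59 CPM to Suz12 at 26.5 CPM.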

How the results depend on the processing

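Counts of members kept their value under RLE size factors in all 19 comparisons. In HP1a WT Tconv against naive cells 5 members passed and 3 with the 2-fold threshold, 4 with the replicate block (4 to 7 without single libraries). In HP1a KO cells 6 passed, 1 with the 2-fold threshold and 5 with the replicate block (3 to 6). In HP1g WT cells 2 passed, and 1 with that threshold (2 to 4), and in HP1g KO cells 4, with 1 by that threshold and 2 with the replicate block (2 to 4). With against without Treg in HP1a WT cells 2 passed, against 1 without the filter on low counts, 1 with the replicate block, 4 with all libraries of the line in 1 fit and 0 with the 2-fold threshold (0 to 3). The fit of all libraries of the line called 1577 genes higher and 1496 lower of 18016 in this comparison. For the difference of the Treg effect between lines 1 passed, against 2 with DESeq2, 2 with all libraries in 1 fit and 0 without the filter, with the replicate block, with the 2-fold threshold or without libraries high in erythroid transcripts (0 to 2). Over all genes DESeq2 called 555 higher and 529 lower of 18145 for this difference, and the fit of all libraries 274 and 369 of 19700. For KO against WT in Tconv with Treg, 0 became 1 in each line with all libraries of the line in 1 fit, and stayed at 0 without single libraries. Over all genes that fit called 733 higher and 527 lower of 18016 in the HP1a line, and 261 and 96 of 18435 in the HP1g line. The replicate block changed no other count by more than 1.5 times. No member that passed changed its direction under any alternative.

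With the left-out library included, 0 members passed in the 3 comparisons that hold it, and 14 of the 27 log2 fold changes there, none past the threshold, turned sign by more than their SE. In Tconv with Treg the SE of members between KO and WT cells reached 0.40 in the HP1a line, which limits what 3 libraries a group can separate.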
